A study of Mus musculus with 28 samples.

Results

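Nascent transcription in cultures carrying an shRNA against Rai1 was compared between bicuculline and tetrodotoxin (TTX), the 2 ends of the activity range that the study set. Bicuculline blocks GABA-A receptors and so releases network firing, while TTX blocks voltage-gated sodium channels and silences it. The comparison takes 3 libraries with bicuculline and 3 with TTX out of 16 nascent RNA libraries. Per gene it is the log2 change of bicuculline against vehicle minus the log2 change of TTX against vehicle, so that the vehicle shared by both cancels. Only genes whose normalized count averaged 50 or more over the libraries were taken, which left 12333 of 22919 listed genes.

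All cultures came from CD1 mouse forebrain (cortex and hippocampus) at embryonic day 18, pooled over embryos with the sexes in a matched ratio, and held neurons, astrocytes and oligodendrocyte precursor cells. They all received a lentivirus on day in vitro 14, carrying either the Rai1 shRNA (shRai1) or a control shRNA (shCtrl), so that no group was free of virus or shRNA. On day 17 the shRai1 cultures described here were given TTX at 1 µM, bicuculline at 20 µM or water as vehicle for 4 hours, with bromouridine at 2 mM for the last 20 minutes. The same comparison in shCtrl, used here only as a reference, rests on 2 libraries with bicuculline and 3 with TTX. The 12 ChIP-seq samples of the study were not analysed here.

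In Bru-seq, bromouridine enters RNA while it is being made, and the labelled RNA is pulled down and sequenced, so that reads fall over introns as well as exons and report transcription during the label. Neuronal firing admits calcium, and calcium-dependent kinases then act on transcription factors already bound at promoters and enhancers. A first wave of immediate-early genes, many of them transcription factors such as Fos, Egr1 and Npas4, is followed by genes for secreted factors, synaptic proteins and inhibitors of the same signalling. RAI1 is a chromatin-associated protein whose haploinsufficiency causes Smith-Magenis syndrome, a disorder with inverted sleep rhythm.

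The files hold group summaries from 1 fit over all 6 groups and no value per library, so the values by condition given below are group means of normalized counts rebuilt from the mean count and the log2 changes. Their error is carried by the standard error (SE) of the log2 difference, which had a median of 0.108 over the genes tested and was at most 0.453. Nascent Rai1 had rebuilt means of 5857 with TTX, 6766 with vehicle and 7113 with bicuculline, a log2 difference of 0.28 (SE 0.065). An shRNA acts on finished RNA, and the interval listed for Rai1 is shared with 3 other genes, so its nascent level is no check of the knockdown. Between the arms, shRai1 minus shCtrl, Rai1 stands in the authors' deposited table at 0.03 (SE 0.0728) in bicuculline and -0.12 (SE 0.0643) in TTX, neither passing (DESeq2 adjusted p = 0.9997 and 0.9998). Neuron markers had a median of 37.5 FPKM (a level scaled for gene length and depth) over the shRai1 conditions, with 18 of 18 at 1 FPKM or more. Of astrocyte markers 14 of 15 reached that level, of oligodendrocyte-lineage markers 11 of 14, of microglia markers 6 of 13, and of endothelial and pericyte markers 2 of 12, with Kcnj8 listed at 0.

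Bicuculline and TTX separated most of the genes measured. Of 12333 genes, 8527 differed between the treatments (69.1% called, two-sided Wald test on the authors' DESeq2 estimates with Benjamini-Hochberg adjustment, adjusted p under 0.05). The calls split evenly, with 4265 genes higher in bicuculline (34.6%) and 4262 lower (34.6%), and the median log2 difference over all genes was -0.01. Counts were normalized between libraries, so the split and the median cannot show whether transcription as a whole shifted. Large differences leaned upward: 1179 genes were higher by a log2 of at least 1 (9.56%) and 782 lower by at least as much (6.34%). Replicates were separate cultures, and each SE measures the spread that the authors' fit estimated between libraries. With the vehicle variance left in the error 7029 genes were called. That error was above the rebuilt SE for 12332 of the 12333 genes and below it for 1, Fam150b.

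The 15 largest rises included genes for secreted factors, neuropeptide precursors and a convertase of such precursors. Fam150b, which codes for a ligand of the receptor tyrosine kinase ALK, had the largest rise, with rebuilt means of 9.34 in TTX, 382 in vehicle and 992 in bicuculline. That is 106-fold, a log2 difference of 6.73 (SE 0.291). Against vehicle the authors' deposited table lists -5.35 for TTX and 1.38 for bicuculline, so the larger log2 step lies between TTX and vehicle. Its listed interval, chromosome 12 from 31569189 to 31596477 in mm9, is shared with Acp1, so its count is uncertain, but Acp1 itself was lower in bicuculline (log2 difference -0.53, SE 0.103). Alk, the receptor gene, was looked up after these values were seen and was also higher, by a log2 of 2.63 (SE 0.11), at 2087 in TTX and 12928 in bicuculline.

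Inhba, which codes for the inhibin beta A subunit of activin A, had 102 in TTX and 3660.0 in bicuculline, with vehicle close to TTX. Its difference of 5.16 (SE 0.205) lay mainly above vehicle, unlike that of Fam150b. Inhba lies on chromosome 13 from 16106308 to 16119044 in mm9, an interval of its own. Ism1, a secreted thrombospondin-repeat protein, ran from 102 in TTX through 271 to 5161 (5.66, SE 0.208), and Serpinb2, a serine protease inhibitor, from 11.4 through 16.9 to 570.2 (5.65, SE 0.353). Lce1g, a gene of the late cornified envelope cluster best known from skin, ran from 3.44 through 4.24 to 176 (5.68, SE 0.453), and its 2 lower means are close to the counting limit. Serpinb2 and Lce1g reached a mean of 50 only in bicuculline, so they could enter the tested genes through their rise. Map3k5, coding for the stress kinase ASK1, rose from 592 with TTX to 14586 with bicuculline over an interval of 208225 bases, a difference of 4.62 with an SE of only 0.0865. In these 5 genes the step from vehicle to bicuculline was larger on the log2 scale than that from TTX to vehicle, though for Ism1 the authors' deposited table lists TTX at -1.41 (SE 0.213) against vehicle.

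A second pattern was a gene already active in vehicle that TTX shut down. Npas4, an activity-dependent transcription factor, had 920.0 in TTX, 8679 in vehicle and 23541 in bicuculline (4.68, SE 0.213). Ptgs2, which codes for cyclooxygenase 2, had 35.2, 193 and 1539 in that order (5.45, SE 0.182), and Pthlh, for parathyroid hormone-like hormone, 15.7, 172 and 390.5 (4.64, SE 0.245). Acan, the aggrecan gene of perineuronal nets, had 165, 952 and 5078 (4.94, SE 0.135). For these genes both steps, from TTX to vehicle and from vehicle to bicuculline, contributed.

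The authors' deposited table gives both steps with their own errors, and since both use the same vehicle libraries the values are only set side by side. For Npas4 the authors' deposited table lists 1.44 (SE 0.213) for bicuculline and -3.24 (SE 0.215) for TTX against vehicle. Inhba stands at 4.61 (SE 0.202) and -0.56 (SE 0.215) in the authors' deposited table. Over the 1179 genes higher by at least 1, the medians in the authors' deposited table were 0.99 for bicuculline and -0.49 for TTX. For the 782 genes lower by at least 1 the authors' deposited table gives -0.86 and 0.47. In the middle of each class, then, bicuculline stood farther from vehicle than TTX did.

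**Figure D1:**
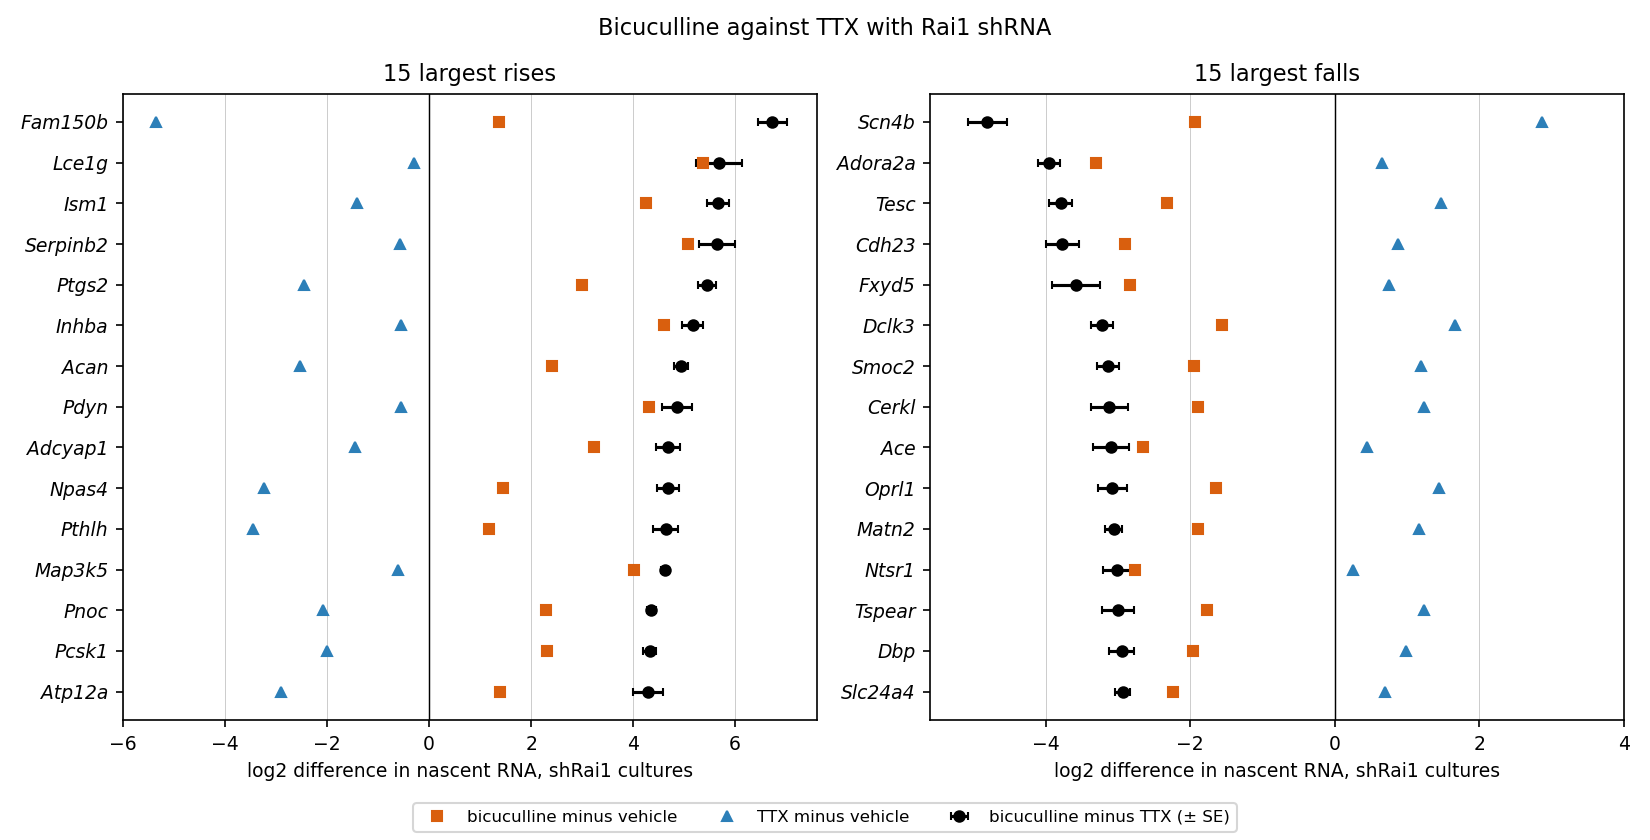
The 15 genes with the largest log2 difference in each direction in shRai1 cultures: black points show bicuculline minus TTX with its SE, orange squares bicuculline minus vehicle and blue triangles TTX minus vehicle. In both panels vehicle sits between the treatments for each gene shown, but its place varies, from near bicuculline (Fam150b, 1.38 and -5.35) to near TTX (Lce1g, 5.38 and -0.30).

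The 15 largest falls included genes for a sodium channel subunit and for receptors of adenosine, neurotensin and nociceptin. Scn4b, the sodium channel beta 4 subunit, had 330 (rebuilt mean, TTX), 45.1 (vehicle) and 11.8 (bicuculline), a 28.0-fold difference and a log2 of -4.81 (SE 0.273). It lies on chromosome 9 from 44947125 to 44962144 in mm9. Here TTX stood far above vehicle: the authors' deposited table lists 2.87 (SE 0.183) for TTX and -1.94 (SE 0.275) for bicuculline against vehicle. Adora2a, a Gs-coupled adenosine receptor, went the other way about, with 1084 in TTX, 686 in vehicle and 69.7 in bicuculline (-3.96, SE 0.152). Tesc, for the calcium-binding protein tescalcin, was at 648, 233 and 46.7 (-3.79, SE 0.157), and Ntsr1, a neurotensin receptor, at 263, 221 and 32.6 (-3.01, SE 0.197). Oprl1, the nociceptin receptor, differed by -3.08 (SE 0.202), while Pnoc, the gene of its ligand precursor, was among the 15 largest rises at 4.36 (SE 0.092). Cdh23, Fxyd5, Smoc2, Cerkl, Ace, Matn2, Tspear and Dbp also fell among the 15, between -3.77 and -2.95, but share their listed intervals with other genes and are uncertain.

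Promoter sequences are shown for genes of both ends because RefSeq windows from 250 bases before to 50 after each start (GRCm38.p6) were searched for motifs of activity-regulated factors. The motifs were the cyclic AMP response element (CRE, TGACGTCA), the AP-1 element (TGANTCA), 2 Egr elements (GCGTGGGCG and GCGGGGGCG), the Mef2 element (CTA and TAG with any 4 bases between) and the CArG box of Srf, each on both strands. A CRE never holds the AP-1 letters, since it is 1 base longer between the same ends. Of the genes tested, 9815 matched by symbol, with 12676 windows of 300 bases. In the windows below, each printed 5′ to 3′ on the strand of its gene, capitals mark a CRE in Pcsk1 (78 bases before the start) and an AP-1 element in Serpinb2 (94 bases before it), and Scn4b holds none of the motifs. Pcsk1 and Serpinb2 were picked because they hold one: of the 15 largest rises 12 had windows and 3 held any motif, and of the 15 largest falls 10 had windows and 1, Tesc, held any.
Pcsk1, chr13:75089607-75089906, plus strand: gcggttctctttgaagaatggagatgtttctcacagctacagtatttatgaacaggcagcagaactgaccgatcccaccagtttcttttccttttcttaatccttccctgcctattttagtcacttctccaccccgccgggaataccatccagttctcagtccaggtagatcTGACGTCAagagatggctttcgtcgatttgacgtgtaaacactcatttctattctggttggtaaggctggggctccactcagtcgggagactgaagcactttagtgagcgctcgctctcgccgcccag
Serpinb2, chr1:107511173-107511472, plus strand: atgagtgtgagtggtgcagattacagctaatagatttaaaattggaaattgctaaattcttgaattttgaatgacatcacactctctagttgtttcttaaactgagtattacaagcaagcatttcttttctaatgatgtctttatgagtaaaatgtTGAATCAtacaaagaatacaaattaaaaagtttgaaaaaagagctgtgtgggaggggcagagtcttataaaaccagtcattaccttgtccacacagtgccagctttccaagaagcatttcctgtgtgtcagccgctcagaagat
Scn4b, chr9:45138374-45138673, plus strand: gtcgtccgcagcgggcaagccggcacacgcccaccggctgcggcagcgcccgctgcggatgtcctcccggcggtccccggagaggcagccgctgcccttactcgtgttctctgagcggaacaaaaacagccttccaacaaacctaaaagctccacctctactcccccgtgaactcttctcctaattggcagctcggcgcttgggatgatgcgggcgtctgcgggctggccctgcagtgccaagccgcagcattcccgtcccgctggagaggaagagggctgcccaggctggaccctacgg

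A CRE was present in 49 of 1196 windows of genes higher by at least 1 (4.10%), in 9 of 838 windows of genes lower by at least 1 (1.07%) and in 393 of 12676 windows of all genes tested (3.10%). An AP-1 element was in 7.27%, 4.18% and 4.93% of the same windows. The CArG box stood at 1.34%, 0.72% and 1.26% and the Mef2 element at 2.84%, 3.10% and 3.06%. The Egr element GCGTGGGCG was in 1.17%, 0.72% and 1.15%, and GCGGGGGCG in 6.44%, 6.09% and 5.68%. The CArG box and the first Egr element were each in only 6 windows of genes lower by at least 1. Over all 32851 windows of the RefSeq table, tested or not, the CRE was in 1.79% and AP-1 in 7.81%, so the share of AP-1 in the upward genes is not above that of the table. Of the named genes with windows, 15 of 44 called higher, 1 of 17 called lower and 7 of 15 not called held any of the motifs. These are descriptions of letters in short windows and no test was made.

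Immediate-early transcription factors were higher in bicuculline nearly throughout: 27 of 30 were called higher and 2 lower, with a median log2 difference of 2.07, where 34.6% of all genes were called higher and the median was -0.01. After Npas4, Atf3, a stress- and activity-induced bZIP factor, stood at 4.27 (SE 0.236), Csrnp1, a nuclear factor first found as an axin target, at 3.87 (SE 0.114), and Maff, a small Maf protein, at 3.44 (SE 0.176). Fos, given as the common marker of activity and not under the rule for named genes, had 858 in TTX, 3078 in vehicle and 7745 in bicuculline (3.17, SE 0.212). The exceptions were Egr3, Klf10 and Bhlhe40, a bHLH repressor at -0.27 (SE 0.0879). With the vehicle variance in the error, or with genes of shared intervals left out, 1 of the list was called lower. Egr3 had 742 in TTX, 2621 in vehicle and 803 in bicuculline, a difference of 0.11 (SE 0.178, adjusted p = 0.578 in the Wald test), so vehicle stood above both treatments. The authors' deposited table lists Egr3 at -1.71 (SE 0.177) for bicuculline and -1.82 (SE 0.176) for TTX. Egr2 and Egr1 were higher by 0.87 (SE 0.159) and 1.36 (SE 0.118), although in the authors' deposited table bicuculline stood below vehicle for both, at -1.13 and -0.46. Klf10 was lower, at -1.34 (SE 0.137), against 2.49 (SE 0.198) for Klf4.

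The windows of Csrnp1 and Maff show how such elements lie. Csrnp1 has 4 windows and Maff 3 in the table, and the ones with a motif are given. Capitals mark 2 AP-1 elements in Csrnp1, 102 and 14 bases before the start, and in Maff an Egr element 88 bases and a CRE 29 bases before it.
Csrnp1, chr9:119982974-119983273, minus strand: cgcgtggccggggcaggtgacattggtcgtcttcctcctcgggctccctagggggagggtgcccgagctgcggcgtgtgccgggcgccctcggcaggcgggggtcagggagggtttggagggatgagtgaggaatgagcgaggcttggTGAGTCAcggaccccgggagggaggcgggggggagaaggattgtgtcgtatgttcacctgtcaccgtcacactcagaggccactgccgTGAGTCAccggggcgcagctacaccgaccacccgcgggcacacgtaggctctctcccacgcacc
Maff, chr15:79347270-79347569, plus strand: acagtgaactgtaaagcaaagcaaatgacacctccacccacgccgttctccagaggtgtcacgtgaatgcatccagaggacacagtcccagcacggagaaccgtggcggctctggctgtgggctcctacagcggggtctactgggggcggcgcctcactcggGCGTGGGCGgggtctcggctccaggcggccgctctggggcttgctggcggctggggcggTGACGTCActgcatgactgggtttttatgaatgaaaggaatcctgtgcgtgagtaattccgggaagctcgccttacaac

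Of 22 tested genes for secreted factors and neuropeptides 20 were higher and 0 lower, with a median of 2.36, beside 34.6% each way over all genes. The list has 8 more members below the count limit, and 2 of the 22 had rebuilt means of 50 or more in bicuculline but not in TTX or vehicle. Such genes could enter through their rise, so the count and median describe the tested members and not the list, and the same holds for 1 immediate-early and 1 feedback gene. On the other side, 1 voltage-gated channel gene and 1 oligodendrocyte-lineage marker reached 50 only in TTX and could enter through their fall. Besides Inhba, the largest differences were Pdyn, the prodynorphin gene (4.86, SE 0.297), Adcyap1, for the peptide PACAP (4.69, SE 0.24), and Pthlh. Pcsk1, whose window is printed above, codes for the convertase that cuts such precursors, and had 147 in TTX, 591 in vehicle and 2949 in bicuculline (4.32, SE 0.124). Bdnf, the brain-derived neurotrophic factor gene, given as a well-known example, had 498, 1529 and 4891 in that order (3.30, SE 0.123). Lif, a cytokine gene, was flat, at 0.02 (SE 0.191). Sst, Cck and Npy, peptides of interneurons, were higher by only 0.69, 0.66 and 0.64.

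Among effectors at the postsynaptic side, 15 of 23 genes were higher (65.2%) and 3 lower (13.0%), with a median of 0.82, beside 34.6% each way over all genes. With genes of shared intervals left out, 1 was called lower. Arc, which drives AMPA receptor endocytosis, had 739 in TTX, 2957 in vehicle and 7835 in bicuculline (3.41, SE 0.207). Syt4, a vesicle protein, followed at 3.05 (SE 0.0892) and Plk2, a kinase of homeostatic synapse weakening, at 2.52 (SE 0.0834). Shank1, a scaffold gene, stood at -0.01 (SE 0.0827), and Shank3 (-0.12) and Dlg4 (-0.13) also did not pass. Camk2a and Camk2b, the subunits of CaMKII, were lower, at -0.72 (shared interval) and -0.31, and so was Lrrtm2, a synaptic adhesion gene, at -0.83 (shared interval).

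Of 25 tested genes that restrain kinase and G-protein signalling 23 were higher and 0 lower, with a median of 2.01, beside 34.6% each way over all genes. With a mean count of at least 20, or with no minimum, 1 was called lower. Dusp4, a MAP kinase phosphatase, had 274 in TTX, 1599 in vehicle and 3787 in bicuculline (3.79, SE 0.117). Dusp1, of the same family, had 468, 1021 and 4925 (3.40, SE 0.201), Rgs2, which shortens G-protein signals, differed by 3.24 (SE 0.0962) and Trib1, a pseudokinase, by 3.19 (SE 0.114). Pde4a, a cyclic AMP phosphodiesterase, was at -0.06 (SE 0.0745), where Pde4b and Pde4d of the same family were higher by 1.45 and 1.33. The windows of Dusp1 and Plk2 were picked as members of different lists that hold a CRE (capitals), 143 and 62 bases before the start. Of the other named members with windows, 2 of the feedback list and 1 of the postsynaptic list held none of the motifs.
Dusp1, chr17:26508423-26508722, minus strand: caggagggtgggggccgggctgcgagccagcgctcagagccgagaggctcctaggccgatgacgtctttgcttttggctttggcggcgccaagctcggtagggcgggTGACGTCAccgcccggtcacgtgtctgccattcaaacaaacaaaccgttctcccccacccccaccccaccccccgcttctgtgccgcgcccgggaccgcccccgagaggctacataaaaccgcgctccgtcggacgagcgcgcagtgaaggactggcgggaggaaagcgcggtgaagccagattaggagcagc
Plk2, chr13:110394794-110395093, plus strand: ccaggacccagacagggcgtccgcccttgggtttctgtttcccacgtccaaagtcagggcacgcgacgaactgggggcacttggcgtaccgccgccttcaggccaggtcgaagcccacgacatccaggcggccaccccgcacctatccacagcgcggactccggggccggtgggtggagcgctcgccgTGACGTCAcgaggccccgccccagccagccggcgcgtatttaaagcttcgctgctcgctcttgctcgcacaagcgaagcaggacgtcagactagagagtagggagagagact

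**Figure D2:**
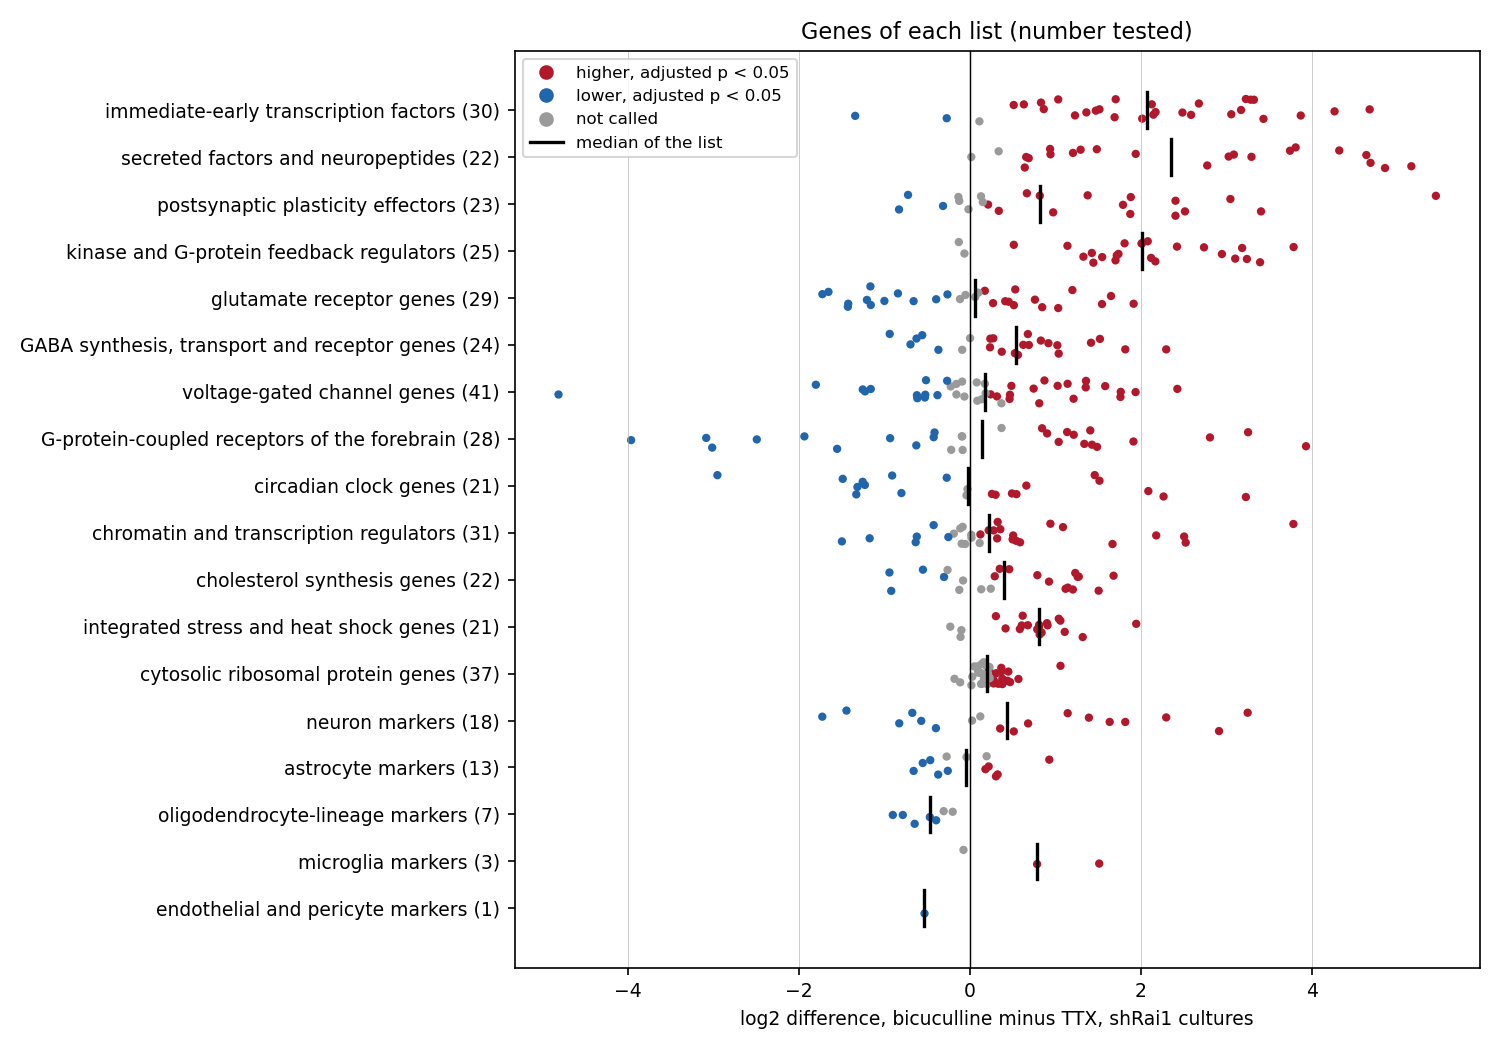
Log2 difference of bicuculline minus TTX for each tested gene of 13 gene lists and 5 marker lists, with red for genes called higher, blue for genes called lower, grey for the rest and a black bar at the list's median. The medians of immediate-early factors (2.07), secreted factors (2.36) and feedback regulators (2.01) lie above those of the other lists, which run from -0.54 to 0.82.

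Glutamate receptor genes gave 13 higher (44.8%) and 12 lower (41.4%) of 29, with a median of 0.07, beside 34.6% each way over all genes. By at least 1, 5 were higher and 7 lower, beside 9.56% and 6.34% of all genes. Of the kainate receptor genes, Grik1 stood at 1.92 (SE 0.181) and Grik2 at 1.04 but Grik3 at -1.42 and Grik4 at -1.65 (SE 0.0811). Of the metabotropic ones, Grm7 stood at 1.65 (SE 0.116) and Grm4 at -1.72 (SE 0.111). Gria4, an AMPA receptor subunit, was at -0.05 (SE 0.0957).

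Of 24 genes of GABA synthesis and reception 17 were higher (70.8%) and 5 lower (20.8%), with a median of 0.55, beside 34.6% each way over all genes. Gad2 and Gad1, the enzymes that make GABA, had 2952 and 6754 in TTX, 4762 and 13208 in vehicle, and 14525 and 23842 in bicuculline. Their differences were 2.30 (SE 0.0841) and 1.82 (SE 0.0796), though both share their listed intervals with other genes. The receptor subunit gene Gabra2 was higher by 1.42 (SE 0.116). Genes called lower included the GABA transporter Slc6a11 (-0.62), the metabotropic subunit Gabbr2 (-0.69), Gabra3 (-0.55) and Slc12a5, the neuronal chloride exporter (-0.37). Abat, which breaks GABA down, was at 0.01 (SE 0.0791).

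Voltage-gated channel genes gave 18 higher (43.9%) and 12 lower (29.3%) of 41, with a median of 0.18, near the 34.6% each way over all genes. Scn4b, counted among the lower genes, reached the count limit only in TTX and could enter through its fall. No member of this list was left untested. Kcnf1, a modifier subunit of potassium channels, was higher by 1.94 (SE 0.123). Cacna1h and Cacna1g, T-type calcium channels, were lower, at -1.80 (SE 0.0934, shared interval) and -1.25, and so was the delayed-rectifier gene Kcna2, at -1.16. Cacna1b, an N-type calcium channel, did not differ detectably at -0.06 (SE 0.0574).

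Forebrain G-protein-coupled receptors ran from -3.96 to 3.93, with 13 higher (46.4%) and 10 lower (35.7%) of 28 tested, beside 34.6% each way over all genes. By at least 1, 11 were higher and 6 lower, beside 9.56% and 6.34% of all genes. With a mean count of at least 200, 4 were called lower. Gpr3, a receptor that raises cyclic AMP without a ligand, had 69.4 in TTX, 341 in vehicle and 1060.0 in bicuculline (3.93, SE 0.133), and Sstr1, a somatostatin receptor, was higher by 3.26 (SE 0.159). Of the dopamine receptors Drd2 stood at -2.49 (SE 0.109) and Drd1a at 1.04 (SE 0.216), and of the muscarinic ones Chrm2 at 1.41 and Chrm1 at -1.93. Adora1, the gene of another adenosine receptor, was at -0.08 (SE 0.109, shared interval).

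Chromatin regulators gave 17 higher (54.8%) and 6 lower (19.4%) of 31 tested, with a median of 0.22, beside 34.6% each way over all genes. Gadd45g, linked to DNA demethylation, was at 242 in TTX, 658 in vehicle and 3336 in bicuculline (3.79, SE 0.122), and Gadd45b was higher by 2.51 (SE 0.133). Tet3, a methylcytosine dioxygenase, had 6635, 6791 and 30097 (2.18, SE 0.0683, shared interval), whereas Tet1 of the same family was lower, at -1.49. Hdac9 was higher by 2.53 (SE 0.181) and Hdac5 by 1.67. Tcf20, whose protein is related to RAI1, was lower, at -1.17, and Ep300, an acetyltransferase gene, stood at 0.02 (SE 0.0602).

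Cholesterol synthesis genes gave 13 higher (59.1%) and 4 lower (18.2%) of 22, with a median of 0.41, beside 34.6% each way over all genes. With genes of shared intervals left out, 2 were called lower. Hsd17b7 led at 1.68 (SE 0.114), with 255 in TTX, 763 in vehicle and 818 in bicuculline, so that this range lay between TTX and vehicle. Cyp51 (1.51, SE 0.0719), Sqle (1.28, SE 0.0926) and Pmvk (1.26, SE 0.119), each an enzyme of the pathway, followed, and Fdps was at -0.08 (SE 0.123). The median of the list against vehicle, in the authors' deposited table, was -0.32 for bicuculline and -0.76 for TTX. Vehicle was thus the highest of the conditions for the middle of this list.

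Stress and heat shock genes gave 18 higher (85.7%) and 0 lower of 21 tested, with a median of 0.81, beside 34.6% each way over all genes. Hsph1, a heat shock protein of the HSP110 family, differed most (1.95, SE 0.0766), then Ppp1r15a, which reverses the stress block of translation (1.32, SE 0.156), Asns, asparagine synthetase (1.11, SE 0.0822), and Atf4, the factor of the integrated stress response (1.06, SE 0.096). Ddit3, its target CHOP, was at -0.10 (SE 0.136, shared interval). Ribosomal protein genes gave 15 higher (40.5%, near the 34.6% over all genes) and 0 lower of 37 tested, with a median of 0.21, and only Rps3 (1.06, SE 0.0842, shared interval) was higher by 1 or more. With genes of shared intervals left out, 9 ribosomal protein genes were called higher.

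Markers of cell types were counted in the same way, and in a mixed culture fewer cells of a type and less RNA per cell cannot be told apart. Neuron markers gave 10 higher (55.6%) and 6 lower (33.3%) of 18, from Neurod6 at -1.72 to Nefl at 3.25 (SE 0.0949). Nefl and Nefm, the neurofilament genes, were among the strongest, with Nefl at 282 in TTX, 345 in vehicle and 2687 in bicuculline, while Syt1 stood at 0.03 (SE 0.122). Astrocyte markers gave 5 higher and 5 lower of 13 tested (38.5% each, near the 34.6% over all genes), none by as much as 1, with Sox9 at 0.93 (SE 0.103) and Aqp4 at -0.65 (SE 0.143). With the vehicle variance in the error 3 astrocyte markers were higher and 3 lower, and 3 were lower at an adjusted p under 0.01 or a mean count of at least 200. Of the microglia markers 3 were tested, and Cd68 (1.52, SE 0.162) and Cx3cr1 (0.79, SE 0.197) were higher. Pdgfrb, a pericyte marker and the only one of its list above the count limit, was at -0.54 (SE 0.166). With a mean count of at least 200, 0 microglia markers were called higher and 0 endothelial and pericyte markers lower. The part of these markers in the differences of the lists was not tested. Besides the genes marked so, Bcas1, Bhlhe40, Chrm2, Gabra3, Gnao1, Grik3, Hdac5, Nefm, Pde4d, Syt1 and Tcf20 share their listed intervals with other genes, and their values are uncertain.

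Genes that were higher by at least 1 were longer and had higher counts than the rest, which did not hold for the falls. Over genes with an interval of their own, the median length was 44.3 kb for genes higher by at least 1, 27.0 kb for genes lower by at least 1, 19.7 kb for genes not called and 26.6 kb for all. The median mean count was 1053, 260, 310 and 469 in the same order, over all genes of each class. With these genes in 4 equal classes by length, 15.9% of the longest class were higher by at least 1, against 7.39%, 7.18% and 8.81% in the other classes from the shortest up. The share lower by at least 1 hardly moved, at 6.78%, 6.53%, 6.70% and 6.82%. Longer genes also had more counts, with a median mean count of 183 in the shortest class and 1814 in the longest, and the part of depth in the length pattern was not tested. Precision did not limit all genes without a call: Map4k4, Ppp6r3, Gnao1 and Fam193a were among the genes with the smallest SEs within 0.1 of 0, from 0.056 to 0.0572, with differences from -0.07 to 0.01.

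The same comparison in the shCtrl arm shares no library with that in shRai1, though both come from 1 fit with common scaling and dispersion. There 64.2% of genes were called, with 1 library fewer. Across 12333 genes the differences in the arms had a Pearson's r of 0.968, given as a description. For the 1109 genes chosen in shCtrl as higher by at least 1, the median difference was 1.45 in shRai1 and 1.41 in shCtrl. For the 783 chosen there as lower by at least 1, it was -1.28 and -1.32. Ism1, Inhba and Scn4b had rebuilt means in shCtrl of 98.7, 92.2 and 370 with TTX and of 5071, 3851 and 11.6 with bicuculline, close to those in shRai1.

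The range itself, shRai1 minus shCtrl, was tested per gene from the contrasts of shRai1 with shCtrl within each treatment. It differed for 42 genes (0.341% called), 20 above 0 (0.162%) and 22 below (0.178%), where 842 had an unadjusted p under 0.05. With the median over genes subtracted, the split was 16 above and 31 below. In 17 of the 42 the treatments differed in opposite directions in the arms, and for 7 of these both arms were called. With the vehicle variance counted into the error, 3 of the calls were made, Pdgfra, Lfng and Mnt. Vehicle cancels from this difference, so that error counts variance foreign to it and is meant as an upper limit. Of the lists, 3 of 21 clock genes and 3 of 7 oligodendrocyte-lineage markers were among the 42, and 0 members of any other list.

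**Figure D3:**
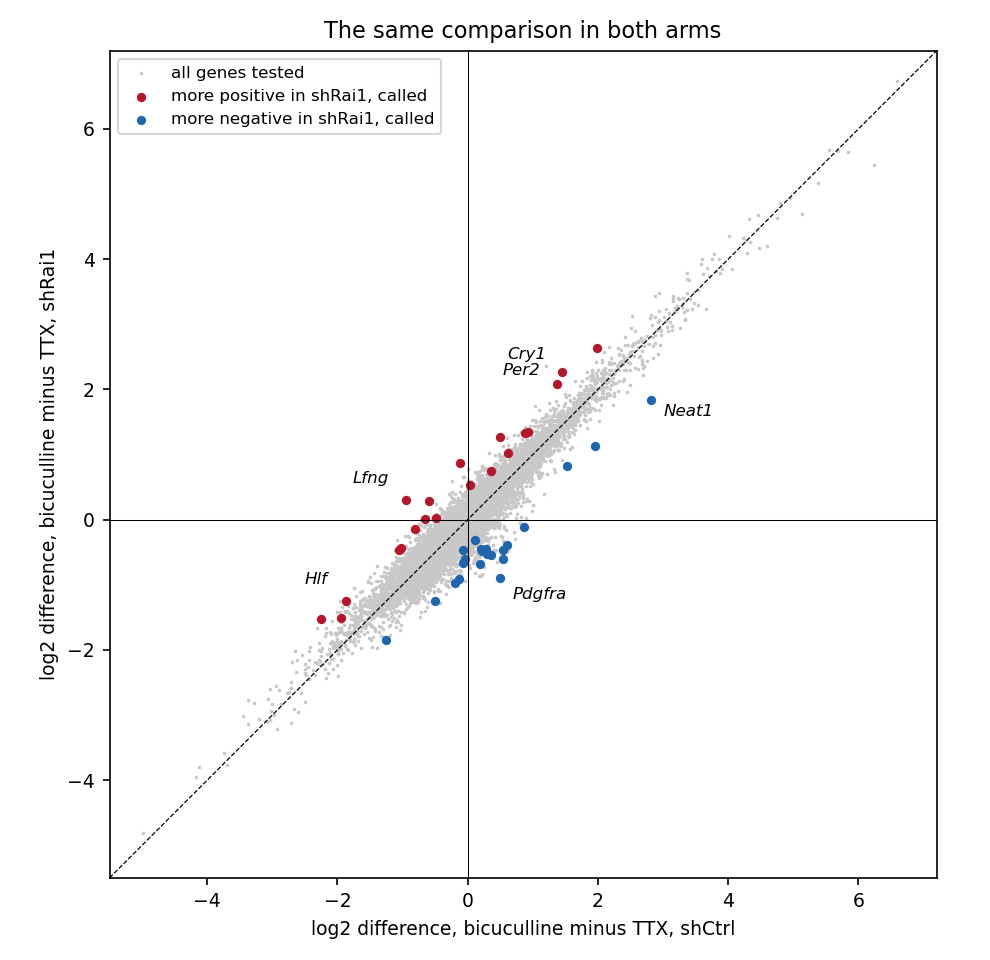
Log2 difference of bicuculline minus TTX per gene in shRai1 (vertical) against shCtrl (horizontal), with grey points for all 12333 genes, red for the 20 genes called more positive in shRai1, blue for the 22 called more negative and a dashed line where both are equal. The genes follow the line (r = 0.968), and the called ones lie off it within about the middle of the range.

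Clock genes gave 10 higher (47.6%) and 9 lower (42.9%) of 21 tested, with a median of -0.03, beside 34.6% each way over all genes. By at least 1, 5 were higher and 6 lower, beside 9.56% and 6.34% of all genes. The clock turns on the activators Clock and Arntl, the repressors of the Per and Cry families, and output factors of the PAR bZIP family that compete with Nfil3 for the same sites. Of the repressor genes, higher in bicuculline were Cry1 by 2.27 (SE 0.0917), Per2 by 2.09 (SE 0.095) and Per1 by 1.52 (SE 0.107), but Per3 was lower, at -1.33. Nfil3 was higher by 3.23 (SE 0.105), while all PAR bZIP genes of the list were lower, Dbp at -2.95 (SE 0.178, shared interval), Tef at -1.48 and Hlf at -1.25. Csnk1e, a clock kinase gene, was at -0.03 (SE 0.0863).

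For Cry1, Per2 and Hlf the range in shRai1 also differed from that in shCtrl. Cry1 had 393 in TTX and 1891 in bicuculline in shRai1, against 575 and 1565 in shCtrl. Its range was larger by 0.82 (SE 0.134, adjusted p = 2.42e-06 in the Wald test). The authors' deposited table for shRai1 against shCtrl lists Cry1 at 0.27 in bicuculline (DESeq2 adjusted p = 0.9997) and -0.55 in TTX (adjusted p = 0.000128), so that only the TTX end passed by itself. Per2 had 1195 and 5085 in shRai1 against 1554 and 4022 in shCtrl, a range larger by 0.72 (SE 0.141, adjusted p = 0.000502). Hlf, named after its values were seen, fell less in shRai1 (-1.25) than in shCtrl (-1.86), a difference of 0.61 (SE 0.145, adjusted p = 0.014). Over the clock list the difference between the arms was above 0 for 17 genes and below for 4, with a median of 0.08 beside 0.02 over all genes, of which 6706 of 12333 were above 0. Lists without a called gene leaned as much, such as the GABA list with 21 of 24 above 0 (median 0.12) and the glutamate receptor list with 23 of 29 (0.16).

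Of the 7 oligodendrocyte-lineage markers tested, 0 were higher and 5 lower, beside 34.6% each way over all genes, with a median of -0.47. Among them 1 reached the count limit only in TTX and could enter through its fall. The count and median thus describe the tested members and not the list. With the vehicle variance in the error, or with a mean count of at least 200, 3 markers were lower. Against vehicle, the medians of the tested markers in the authors' deposited table were 0.09 for bicuculline and 0.47 for TTX. In the middle of this list, then, TTX stood above vehicle and bicuculline near it. Mbp went the other way, at -0.64 for bicuculline and 0.14 for TTX. In shCtrl the median of bicuculline minus TTX for the same genes was 0.50. Pdgfra, the growth factor receptor that defines oligodendrocyte precursors, had 429 in TTX and 230.0 in bicuculline in shRai1, a difference of -0.90 (SE 0.119). In shCtrl it had 304 in TTX and 429 in bicuculline (0.50, SE 0.129). The arms thus differed by -1.40 (SE 0.175, adjusted p = 1.51e-11), the largest difference downward among the called genes. Pdgfra shares its listed interval with a microRNA gene, Mir7025.

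Cspg4, which codes for the proteoglycan NG2 of the same cells, had 211 in TTX and 153 in bicuculline in shRai1 against 162 and 235 in shCtrl, a difference of -1.003 between the arms (SE 0.209, adjusted p = 0.00152). Olig2, a lineage transcription factor, had 337 and 257 against 238 and 361, a difference of -0.99 (SE 0.203, adjusted p = 0.00106). In shRai1 the higher value of each was with TTX and in shCtrl with bicuculline. Sox10 (-1.10, SE 0.35, adjusted p = 0.188) and Bcas1 (-1.02, SE 0.344, adjusted p = 0.254) had differences of like size and did not pass. Olig1, next to Olig2 in the genome, was at -0.14, and Mbp, a myelin gene of mature cells, at 0.19. The authors' deposited table for shRai1 against shCtrl lists Pdgfra at -0.90 in bicuculline and 0.50 in TTX, Cspg4 at -0.62 and 0.38, and Olig2 at -0.49 and 0.50. Both values of Pdgfra passed in the authors' deposited table (DESeq2 adjusted p = 1.93e-07 and 0.0482), and those of Cspg4 (0.2305 and 0.9998) and Olig2 (0.622 and 0.311) did not. Whether the number of these cells differed between cultures was not tested, and 7 of the 14 markers were below the count limit.

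**Figure D4:**
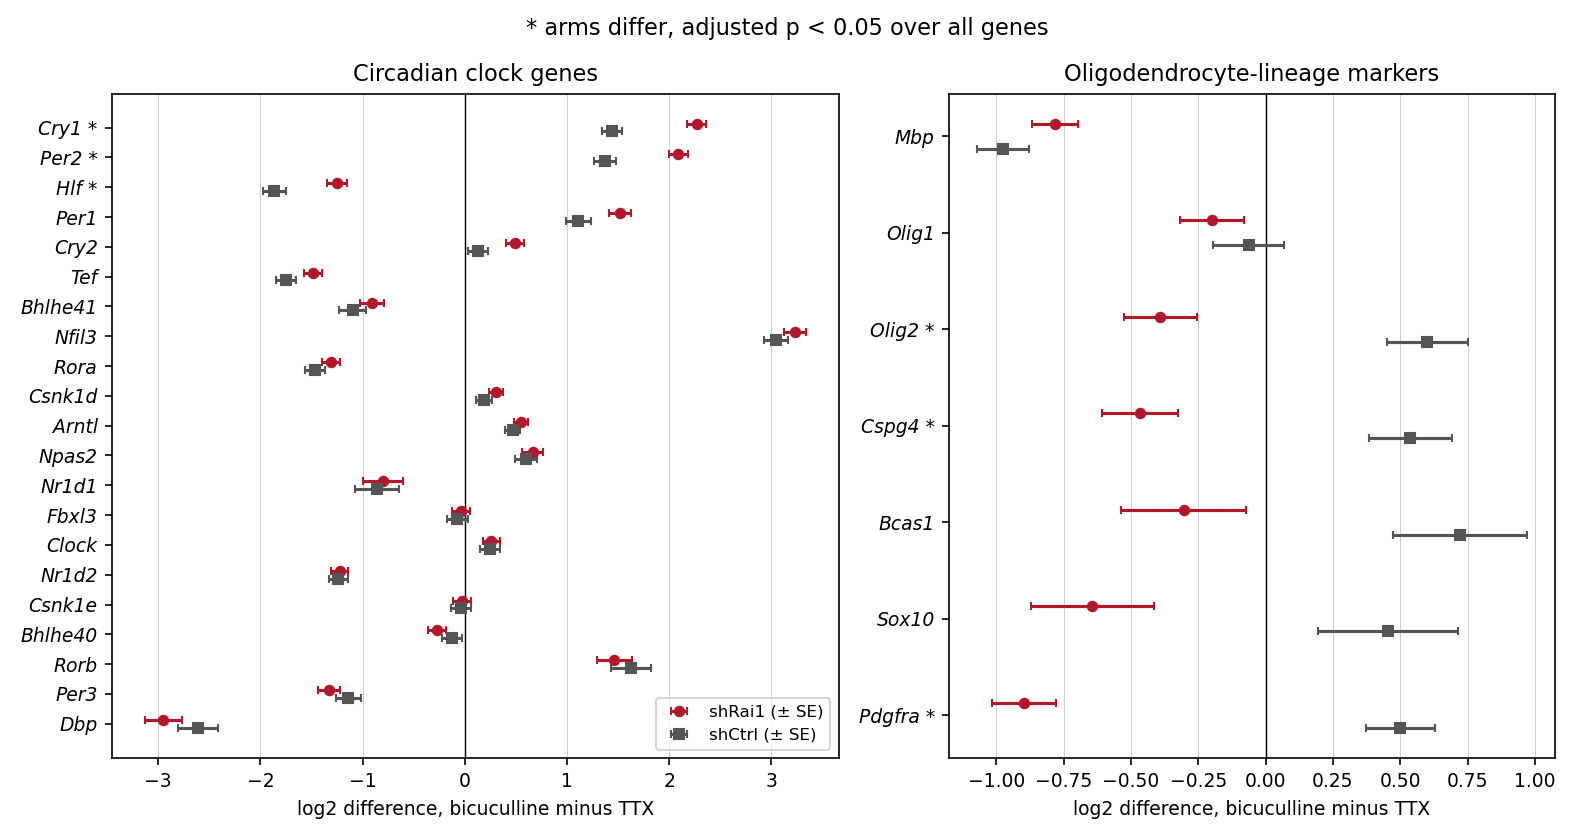
Log2 difference of bicuculline minus TTX with its SE in shRai1 (red circles) and shCtrl (grey squares) for the tested clock genes and oligodendrocyte-lineage markers, ordered by the difference between the arms, with an asterisk where that difference was called. Pdgfra, Cspg4, Olig2, Sox10 and Bcas1 lie on opposite sides of 0 in the arms, and Cry1 and Per2 are farther from 0 in shRai1.

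Outside these lists, Lfng, a glycosyltransferase that tunes Notch signalling, had the largest difference upward, 1.24 (SE 0.188, adjusted p = 1.53e-07), being 0.30 in shRai1 (SE 0.125) and -0.94 in shCtrl. Zscan18, a zinc finger gene, differed by 0.98 (SE 0.223). Mnt, which codes for a repressor that pairs with MAX and was named after its values were seen, differed by 0.88 (SE 0.134, adjusted p = 1.53e-07), being 0.29 in shRai1 and -0.60 in shCtrl. Below 0 were Eda2r, a receptor of the tumour necrosis factor family, at -1.15 (SE 0.252), Dhrs1, a dehydrogenase, at -0.98 (SE 0.182), and Neat1, the long noncoding RNA of paraspeckles, at -0.97 (SE 0.242). Neat1 was higher in bicuculline in both arms, by 1.84 in shRai1 and 2.81 in shCtrl, whereas Eda2r was -0.60 and 0.55. Alk had a larger range in shRai1, 2.63 against 1.99 (difference 0.64, SE 0.165, adjusted p = 0.0338). Within shRai1, vehicle stood above both treatments for Lfng (486, beside 295 in TTX and 364 in bicuculline). The same held for Mnt (1357, beside 717 in TTX and 874 in bicuculline).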

How the data were processed

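Nascent RNA was sequenced from 16 cultures in 6 groups, as single-end, strand-specific reads of 50 bp, per the labels' protocols. Reads were aligned with TopHat2 2.1.0 and Bowtie2 2.2.6 to mm9 and compared with DESeq2, per the submitters' processing notes. The authors deposited 7 comparison tables with a mean normalized count (a signal averaged over libraries), a log2 change, its SE, a Wald score and p-values, per the file headers. The deposited log2 changes of low genes had been drawn toward 0, with a largest absolute value of 0.794 at a mean count under 1, so low rebuilt means are approximate. The authors also deposited FPKM pooled per condition, per the file headers. Its shRai1 columns were used only as their mean over treatments, since the differences between them, as named, had r = -0.788 across 8906 genes with those of the comparison tables, against 0.879 in shCtrl. Deposited starts were read as 0-based and are printed 1-based.

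The SE of bicuculline minus TTX was rebuilt. Group means came from the mean count and the log2 changes, and 1 dispersion per gene was fitted to the 7 deposited SEs. Rebuilt and deposited SEs differed by a median of 0.64%. Each difference was divided by its SE and its two-sided Wald p was adjusted by Benjamini and Hochberg over 12333 genes with a mean count of at least 50. Calls have an adjusted p under 0.05. The range in shRai1 minus that in shCtrl came from contrasts that share no library. Named genes were the 15 largest called differences in each direction, up to 4 called members of each list with the member nearest to 0, the 8 called genes with the largest difference between arms, the 5 genes with the smallest SE near 0, and Rai1; any other gene was named after its values were seen, and some genes that the rule names are not reported here. The members and the lists were chosen with earlier results of these data known. On simulated data 98% of genes changed by a log2 of 1 and 71% of those changed by 0.5 were recovered for bicuculline against TTX, with 3 false calls. For the difference between the arms it was 88% and 35%, with 11 false calls. In each run 200 of 12333 genes were changed, far fewer than were called in the data. The simulated SEs followed the same formula as the rebuilt ones, and no log2 change was drawn toward 0. The runs thus check the steps of the calculation and not how well its model describes these data. Alternatives were other count minimums, a stricter threshold, subtraction of the median, other SEs and, chosen after seeing the data, leaving out genes with shared intervals. Python 3.11.15, pandas 2.3.3, numpy 2.4.6 and scipy 1.17.1 were used.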

Additional observations from a re-analysis of the deposited data

Results flagged for a closer look

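For 13 genes named in the text, the difference between bicuculline and TTX was not the same in shRai1 as in shCtrl, by the test of that difference itself. Smaller or reversed in shRai1 were Pdgfra (-1.40), Eda2r (-1.15), Cspg4 (-1.003), Olig2 (-0.99), Dhrs1 (-0.98) and Neat1 (-0.97). More positive in shRai1 were Hlf (0.61), Alk (0.64), Per2 (0.72), Cry1 (0.82), Mnt (0.88), Zscan18 (0.98) and Lfng (1.24). With the vehicle variance counted into the error, Pdgfra, Lfng and Mnt were still called and the other 10 were not, with an adjusted p of 0.0729 for Cry1. Vehicle cancels from this difference, so that error is meant as an upper limit. The shCtrl arm has 2 bicuculline libraries, and which library each difference rests on could not be examined from group summaries.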

How the results depend on the processing

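The count of genes differing between bicuculline and TTX in shRai1 stayed within 1.5 times under the 8 alternatives run, between 6595 (mean count of at least 200) and 9191 (no minimum), beside 8527. The count lower by at least 1 was 445 with a mean count of at least 200. For the same comparison in shRai1, of the named genes, Sox10, Olig2 and Lfng were no longer called with the vehicle variance in the error (adjusted p = 0.0984, 0.0684 and 0.124), nor Lfng at an adjusted p under 0.01, and 859 of 863 results for named genes kept their side and direction.

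The difference between the arms, with 42 genes called, depended on the settings. No minimum count gave 27 genes, 11 of them above 0. An adjusted p under 0.01 gave 21, with 8 above and 13 below 0. The vehicle variance in the error, meant as an upper limit, gave 3, with 2 above and 1 below. Of 65 results for named genes 9 were no longer called, 8 of them under that error. Among list counts 271 of 288 moved by less than 1.5 times.

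No paired analysis was possible because the files hold group summaries and no value per library. For the same reason the replicate block and leaving out each library in turn were not run, so a result that rests on 1 library cannot be seen here. Depth per library is unknown, and genes below a mean count of 50 were not tested.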
